A study of Homo sapiens with 45 samples.

Results

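Sterol and fatty acid synthesis was followed through 29 genes chosen by symbol, out of 58233 genes in the tables, while H9 cells, which are an established line of human embryonic stem cells, were differentiated toward motor neurons. All 29 were found, and all 29 passed the filter on low counts. By role they were 7 mevalonate pathway enzymes, 11 enzymes from squalene to cholesterol, 4 genes of sterol sensing and transport, and 7 genes that make, lengthen or desaturate fatty acids. Messenger RNA was measured in 45 libraries, 3 on each of 15 days from day 0 to day 15, with day 3 not sampled. All cells came from this 1 line and were first grown toward neuromesodermal progenitors, the tail bud cells that form spinal cord and paraxial mesoderm. That culture ran from days -3 to -1 in N2B27 medium with the GSK3 inhibitor CHIR99021 (3 µM), bFGF (5 ng/ml), the TGF-beta receptor inhibitor SB431542 (10 µM), the BMP receptor inhibitor DMH1 (2 µM) and ROCK inhibitor (10 µM, removed after 48 h). The day 0 libraries are labelled as the control. On day 0 cells were dissociated and replated with retinoic acid (RA, 100 nM), SAG (500 nM), an agonist of the Hedgehog pathway, and ROCK inhibitor (10 µM), again removed 48 h later. Medium change, treatment, replating and time therefore cannot be told apart between day 0 and day 1. Later medium changes came every other day; on which days they fell is not given. The replicates are labelled only as bioreps, so p-values measure the spread between these samples, which may be technical.

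Cholesterol is built from acetyl units through mevalonate, isoprenoids and squalene, and fatty acids are built from the same acetyl units, drawn from citrate in the cytosol. Both pathways are controlled by SREBP transcription factors, which sit in the endoplasmic reticulum bound to SCAP and are held there by INSIG proteins while sterol is plentiful. When sterol is low, SREBP moves to the Golgi, is cut by proteases, and enters the nucleus, where it activates genes of sterol synthesis, lipid synthesis and INSIG1 itself. Serum-free media such as N2B27 supply little lipid, and growing neurons need lipid for new membrane.

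SREBP binds sterol regulatory elements, often beside CCAAT boxes, which bind NF-Y. Promoter sequences of RefSeq (GRCh38.p14, 250 bases before and 50 after each start) were matched for 25 of the 29 genes. ACAT2, FDFT1, SQLE and FASN had no entry among the promoters searched. Both strands were searched for the sterol regulatory element letters TCACNCCAC, for the CCAAT box letters CCAAT and for the E box letters CACGTG, each motif counted on its own. CCAAT was present in 17 of the 25 (68.0%), against 35.7% of 27305 promoters of the same length. It was present in 12 of the 15 sterol enzymes with an entry and in 2 of the 6 fatty acid genes with one (ACLY and SCD). The 8 without it were PMVK, IDI1, CYP51A1, SREBF1, ACACA, ELOVL6, FADS1 and FADS2. Only 1 RefSeq start per gene was searched. For IDI1, ACLY, FADS1 and FADS2 it lies far from the first start annotated in GENCODE 29, and for DHCR7 it lies less far from it. Other starts of these genes were not searched. CACGTG was present in 3 of 25 (LSS, SC5D and INSIG1), or 12.0%, against 7.43% of all promoters. TCACNCCAC was present in SREBF2 alone, 133 to 125 bases before its start, against 1.15% of all promoters. A match is only a description of these letters.

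Upstream sequence is shown for 4 genes, the one that holds both elements and those with leading changes below, up to the first annotated start of the gene in either RefSeq or GENCODE 29, with motif matches in capitals (ATTGG is CCAAT read on the other strand). SREBF2, which encodes the SREBP most tied to sterol genes, is shown at chr22:41832855-41833078, plus strand, 224 bases. HMGCS1, which makes HMG-CoA, is shown at chr5:43313513-43313662, minus strand, 150 bases. INSIG1, the sterol-responsive anchor of SCAP, is shown at chr7:155297628-155297775, plus strand, 148 bases. SCD, which puts the first double bond into saturated fatty acids, is shown at chr10:100346983-100347123, plus strand, 141 bases.
SREBF2: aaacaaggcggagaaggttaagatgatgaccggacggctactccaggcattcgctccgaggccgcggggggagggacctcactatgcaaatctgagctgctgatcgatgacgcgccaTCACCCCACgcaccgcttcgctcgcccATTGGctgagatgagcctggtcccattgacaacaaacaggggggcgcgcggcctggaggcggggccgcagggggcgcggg
HMGCS1: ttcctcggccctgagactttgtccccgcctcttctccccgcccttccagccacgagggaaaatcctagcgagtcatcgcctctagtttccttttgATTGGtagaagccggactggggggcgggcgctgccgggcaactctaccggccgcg
INSIG1: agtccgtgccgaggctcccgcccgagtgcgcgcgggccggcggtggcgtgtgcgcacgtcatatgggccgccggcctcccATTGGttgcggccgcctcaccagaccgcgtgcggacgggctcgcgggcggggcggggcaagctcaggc
SCD: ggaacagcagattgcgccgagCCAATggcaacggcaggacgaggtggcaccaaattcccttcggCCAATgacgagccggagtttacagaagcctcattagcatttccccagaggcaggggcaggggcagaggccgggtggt
The SREBF2 stretch holds 1 element of each kind, while the stretch of SCD holds 2 CCAAT boxes and those of HMGCS1 and INSIG1 hold 1 each. A second CCAAT box of HMGCS1 lies 100 to 96 bases before the RefSeq start, beyond the end of what is shown.

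Library totals ran from 22835854 to 39066286 counts, and the lowest count of any of the 29 genes in a library was 566, for PMVK. Levels are counts scaled to library size with TMM factors (CPM), given per library or as mean ± SD (n = 3); levels of different genes are compared only in TPM, which is scaled for length. Mitochondrial genes held 2.241% to 3.208% of counts on day 0, 3.653% to 5.287% on day 1, 1.795% to 2.348% on day 8 and 4.081% to 4.352% on day 15; on these days it was high where the 29 genes were low, and its part in the results was not tested. Neuronal markers (10 genes) summed to 660.3 to 683.5 CPM on day 0, 596.0 to 602.0 on day 1, 4665 to 5146 on day 8 and 3524 to 4038 on day 15. Proliferation markers (10 genes) summed to 3765 to 3829, 5628 to 5786, 2746 to 2839 and 1945 to 2181 CPM on those days. Neural progenitor markers (10 genes) summed to 1987 to 2314, 5172 to 5478, 5895 to 6029 and 4507 to 4668 CPM. On day 15 the 7 astrocyte markers summed to 509 to 541 CPM. The 6 of 8 oligodendrocyte markers that passed the filter summed to 182 to 194 CPM. At an adjusted p under 0.05 (edgeR quasi-likelihood F test), 4 astrocyte markers were higher and 3 lower than on day 0, each at least 2-fold. Against day 8, 3 were higher and 1 lower. Of the oligodendrocyte markers, 3 were higher and 3 lower than on day 0. Within these mixed lists, GFAP averaged 0.052 CPM on day 15 and SOX10 was at 0 in every library of that day. The 5 of 8 mesoderm and endoderm markers that passed the filter summed to at most 3.68 CPM on day 1 and 2.77 CPM on day 15. In these bulk samples, fewer cells of a type and less RNA per cell cannot be told apart.

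All 29 genes differed between days in the edgeR quasi-likelihood F test over the 15 days (adjusted p under 0.05), as did 91.5% of the 19436 genes tested. Together the 29 genes summed to 15342 ± 163 CPM on day 0, 8112 ± 54.4 on day 1, 13118 ± 227 on day 8 and 9634 ± 444 on day 15. The sum thus fell to 52.9% of day 0, climbed back to 85.5% and ended at 62.8%. In sum, the 18 sterol enzymes returned to 97.9% of day 0 by day 8, whereas the 7 fatty acid genes reached 77.6%. Single sterol enzymes differed. FDFT1 read 681, 682 and 691 CPM on day 0 and 790, 823 and 794 on day 8, whereas DHCR7 read 291, 289 and 295 and then 222, 220 and 217. Day 8 was not tested against day 0. Of the 29 genes, 18 were lowest on day 1 and 7 on day 15, and 14 were highest on day 0 and 8 on day 8. In mean TPM over all libraries the most abundant were FADS2 (791), SCD (688), FDFT1 (640) and HMGCS1 (595), and the least abundant was PMVK (34.2).

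**Figure D1:**
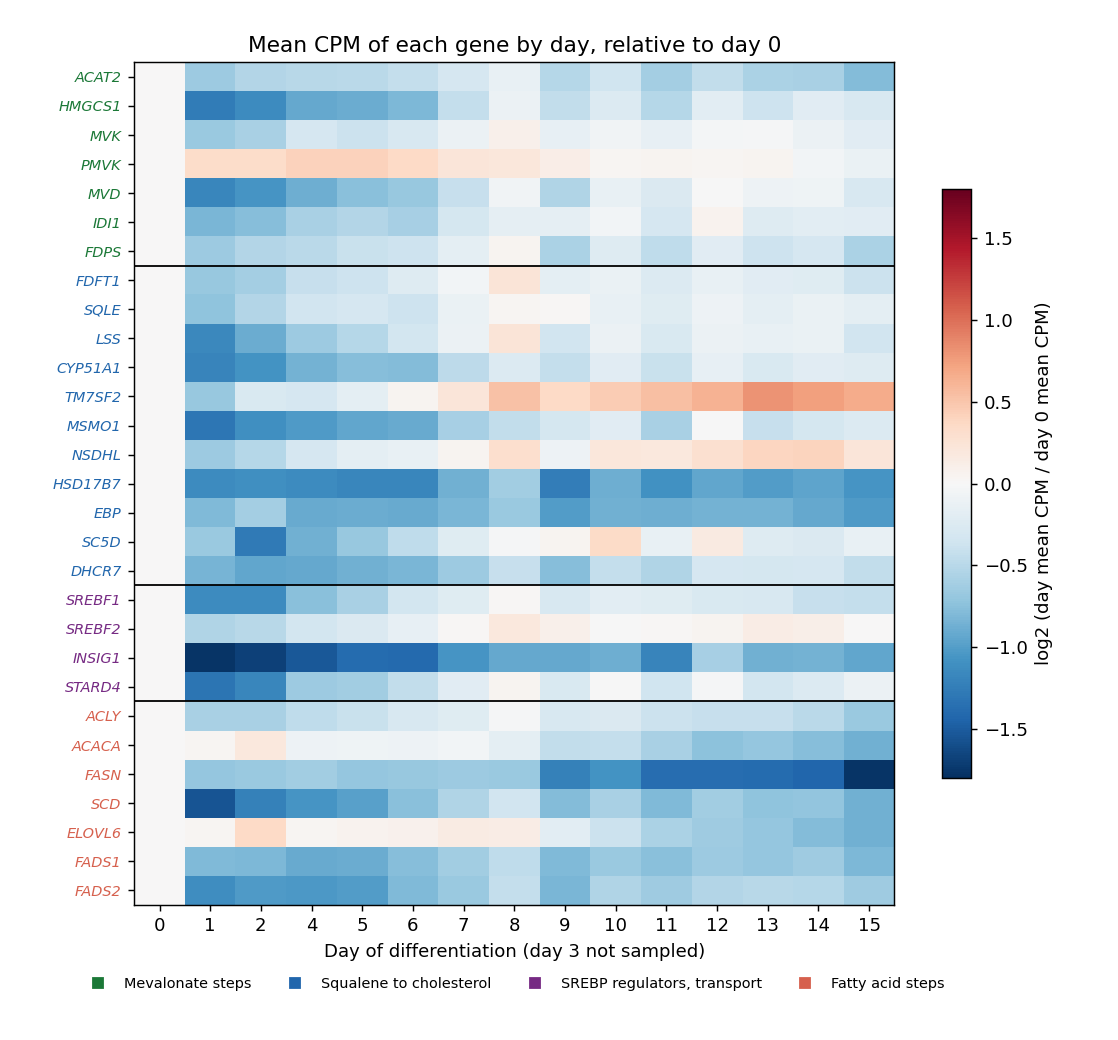
Mean CPM of each of the 29 genes (rows, grouped by role) on each sampled day (columns), as log2 of its ratio to day 0. Most rows are blue on day 1, fade by day 8, and FASN ends darkest on day 15 (log2 -1.77), while PMVK is above day 0 on day 1 (log2 0.33).

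**Figure D2:**
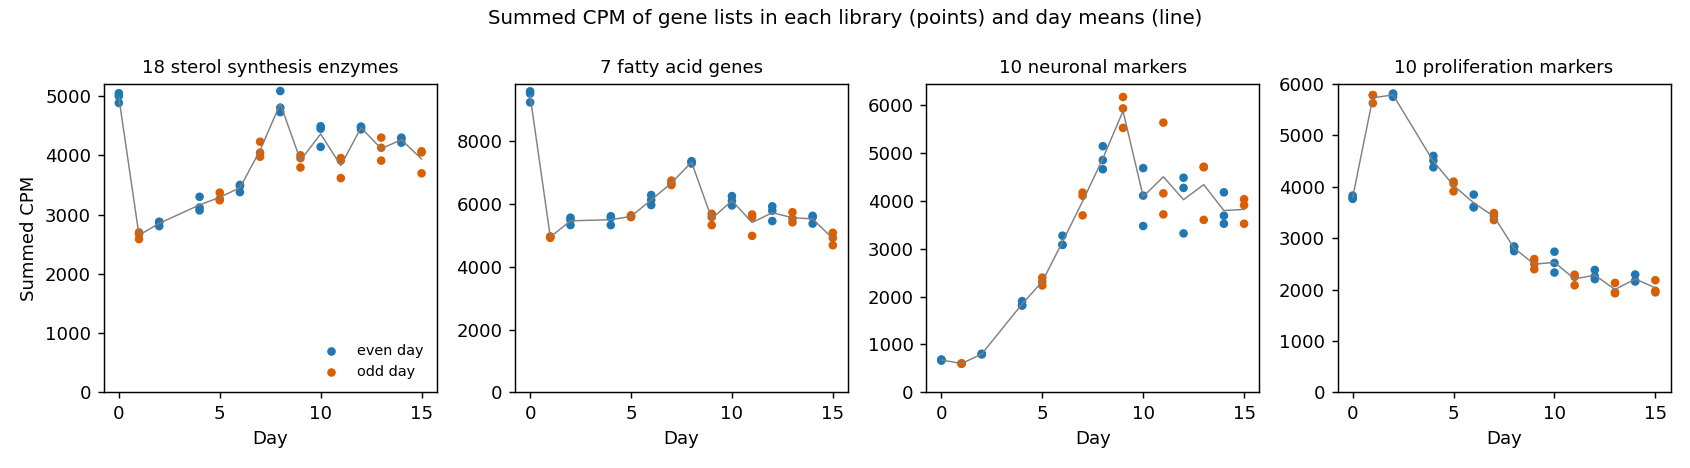
Summed CPM in each library (points; blue even days, orange odd days; line at the day mean) for the 18 sterol enzymes, 7 fatty acid genes, 10 neuronal markers and 10 proliferation markers, each on its own linear axis from 0 against day. Sterol enzymes average 4979 on day 0, 2653 on day 1 and 4874 on day 8.

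In the first day after replating in RA and SAG, nearly the whole synthetic route fell. Of the 29 genes, 26 were lower and 1 was higher on day 1 than on day 0, with a median log2 change of -0.80, and 11 fell at least 2-fold. In the same interval 8 of 10 neural progenitor markers rose, 5 of them at least 2-fold, and 1 fell, and their summed level reached 251.4% of day 0; their part was not tested. Across all genes tested, 31.7% were called lower and 30.1% higher, with a median of 0. Calls here and below are at an adjusted p under 0.05 (edgeR quasi-likelihood F test, Benjamini-Hochberg over 19436 genes), and log2 changes are ± SE.

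INSIG1 fell furthest. Its libraries held 178, 169 and 174 CPM on day 0 and 51.1, 52.2 and 50.1 CPM on day 1, so the days were far apart and did not overlap. The log2 change was -1.76 ± 0.05 (3.39-fold lower, adjusted p = 7.07e-27). All 4 genes of sensing and transport fell: STARD4, which carries cholesterol between membranes, by 1.32 on the log2 scale, SREBF1 by 1.14 and SREBF2 by 0.54 ± 0.05 (adjusted p = 1.37e-12), the smallest of the 4.

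Of the 7 mevalonate enzymes, 6 fell and PMVK rose. HMGCS1 read 1245, 1217 and 1229 CPM on day 0 against 531, 533 and 484 on day 1, a log2 change of -1.25 ± 0.07 (adjusted p = 1.59e-18). MVD, which makes isopentenyl diphosphate, followed at -1.17, IDI1, which isomerises it, at -0.82, and MVK, mevalonate kinase, at -0.67. ACAT2, which joins acetyl-CoA units, changed by -0.65, as did FDPS, which makes farnesyl diphosphate (-0.65 ± 0.06, adjusted p = 1.28e-11). PMVK, phosphomevalonate kinase and the next step after MVK, went the other way: 20.3, 20.3 and 22.7 CPM became 26.8, 24.7 and 28.0. Its libraries did not overlap (log2 change 0.33 ± 0.08, adjusted p = 0.00025).

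All 11 enzymes from squalene to cholesterol fell. MSMO1, which removes methyl groups from the sterol ring, had the largest change (log2 -1.30 ± 0.12, adjusted p = 3.69e-11), from 217, 203 and 169 CPM to 84.1, 81.8 and 73.1. Its partner enzymes CYP51A1 and HSD17B7 changed by -1.18 and -1.13, and NSDHL, from the same demethylation complex, by -0.65 ± 0.06 (adjusted p = 5.78e-13), the smallest of the group. LSS, which closes the ring, changed by -1.16. SQLE, which oxidises squalene, changed by -0.72, FDFT1, squalene synthase, by -0.68, and TM7SF2, a sterol reductase, by -0.68. EBP, a sterol isomerase, changed by -0.80, DHCR7, which reduces the last precursor, by -0.84, and SC5D, a desaturase, by -0.66.

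Fatty acid genes divided. SCD, with 3461, 3575 and 3436 CPM on day 0 and 1197, 1198 and 1167 on day 1, fell 2.94-fold (log2 -1.56 ± 0.05, adjusted p = 1.97e-27). FADS2 and FADS1, desaturases of polyunsaturated fatty acids, changed by -1.12 and -0.80. FASN, fatty acid synthase, changed by -0.70, and ACLY, which splits citrate to acetyl-CoA, by -0.58 ± 0.04 (adjusted p = 1.62e-16), the smallest called fall among the fatty acid genes. Neither ACACA, which makes malonyl-CoA, nor ELOVL6, which lengthens palmitate, passed the test: log2 changes were 0.03 ± 0.04 (adjusted p = 0.519) and 0.04 ± 0.05 (adjusted p = 0.503). On the TPM scale ELOVL6 was instead called lower (limma on log2(TPM + 1), -0.12, adjusted p = 0.0461).

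**Figure D3:**
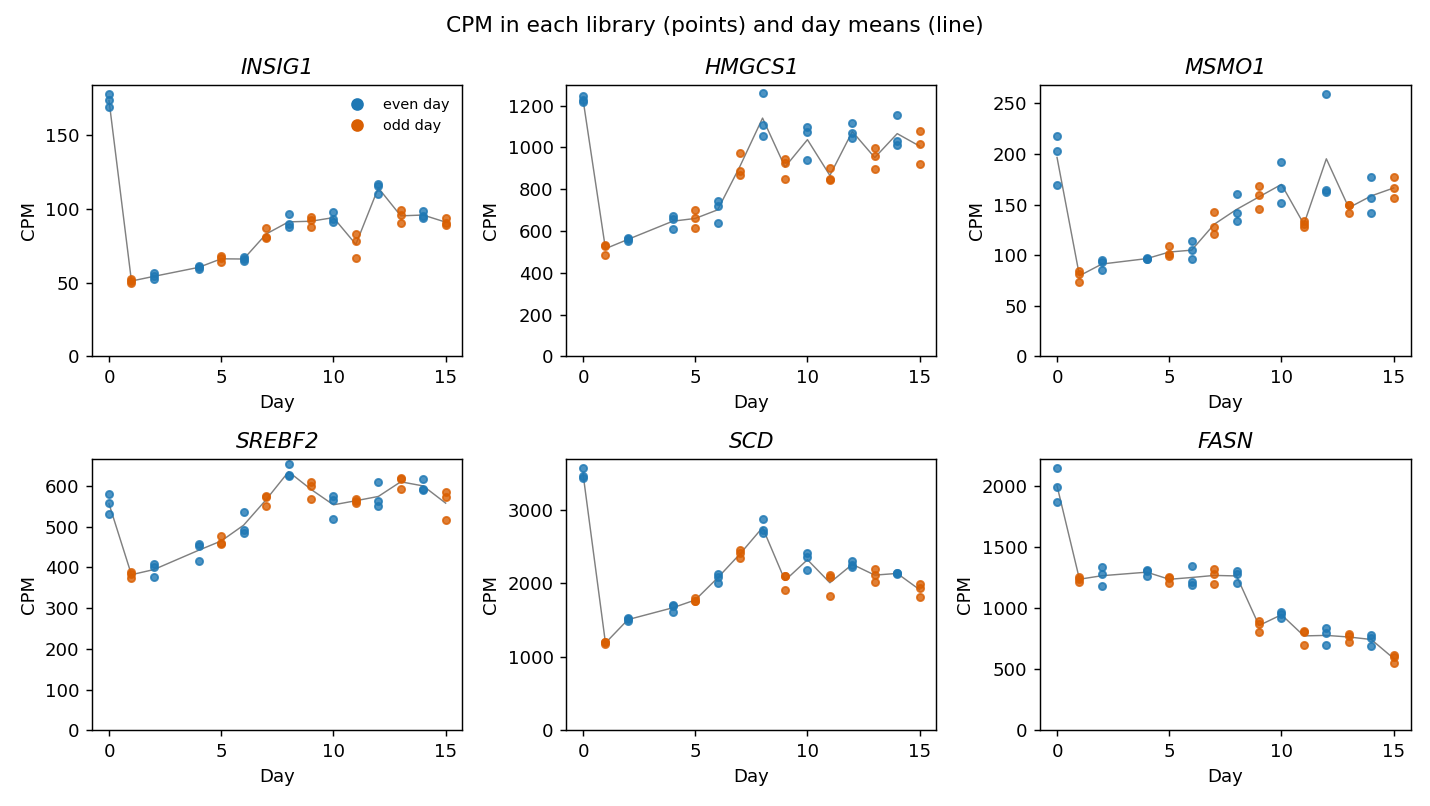
CPM in every library (points; blue even days, orange odd days) against day, with the day means joined, for INSIG1, HMGCS1, MSMO1, SREBF2, SCD and FASN, each on its own linear axis from 0. INSIG1 falls from about 174 to 51.1 CPM in 1 day, and 1 library of day 12 stands apart for MSMO1 at 259 CPM.

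Recovery began by day 4 and was broad by day 8. From day 1 to day 4, 18 of the 29 genes rose and 2 fell (median log2 change 0.23), against 24.4% and 22.8% of all genes. STARD4 rose most, by 0.67 ± 0.09 (adjusted p = 2e-07), from 34.8, 32.8 and 32.3 CPM to 52.1, 55.5 and 51.5. LSS rose by 0.51 and SCD by 0.49, while ACAT2 (0.16 ± 0.04, adjusted p = 0.00296), ACLY (0.13 ± 0.04, adjusted p = 0.0046), SREBF2 (0.21) and FDFT1 (0.26) had the smallest called rise of their groups. Among mevalonate enzymes MVK led (0.37). The 2 that fell were fatty acid genes, ACACA (-0.13, adjusted p = 0.00647) and FADS1 (-0.11, adjusted p = 0.0287), and on the TPM scale neither was called. FADS1 also lost its call without any 1 of 5 of the 6 libraries, with adjusted p from 0.052 (without day 4 replicate 1) to 0.094 (without day 4 replicate 2).

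From day 4 to day 8, 25 of 29 rose and 1 fell, with a median log2 change of 0.53, whereas 27.1% of all genes were higher and 26% lower. Cholesterol enzymes rose in all 11 cases, led by LSS, with 258, 238 and 246 CPM on day 4 and 460, 462 and 447 on day 8 (0.89 ± 0.07, adjusted p = 2.89e-14), with EBP least (0.23 ± 0.07, adjusted p = 0.00384). SC5D (0.84) and TM7SF2 (0.83) were close to LSS. Of the mevalonate enzymes MVD (0.82 ± 0.08, adjusted p = 2.05e-11) and HMGCS1 (0.82) rose most and ACAT2 least (0.37), and PMVK again ran against them (-0.22 ± 0.07, adjusted p = 0.0132), although its libraries of the days overlapped and the call was lost without day 4 replicate 1 (adjusted p = 0.18) or day 8 replicate 2 (0.218). SREBF1 rose by 0.77 ± 0.08 (adjusted p = 4.96e-11) and SREBF2 by 0.52 ± 0.05 (adjusted p = 6.21e-12). The SREBF2 libraries ran from 417 to 458 CPM on day 4 and from 625 to 653 on day 8. SCD rose by 0.73 and ACLY by 0.43, but ACACA (-0.07, adjusted p = 0.109), FASN (-0.03, adjusted p = 0.674) and ELOVL6 (0.09, adjusted p = 0.085) did not pass the test. In the same interval all 10 neuronal markers rose (median log2 1.74) and all 10 proliferation markers fell (median -0.70); their part in these changes was not tested. The TPM scaling raised the share of higher calls over all genes, from 51.7% to 64.1% for day 4 against day 1 and from 51% to 65.6% for day 8 against day 4, with 26 of the 29 genes higher and 0 lower in the latter.

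**Figure D4:**
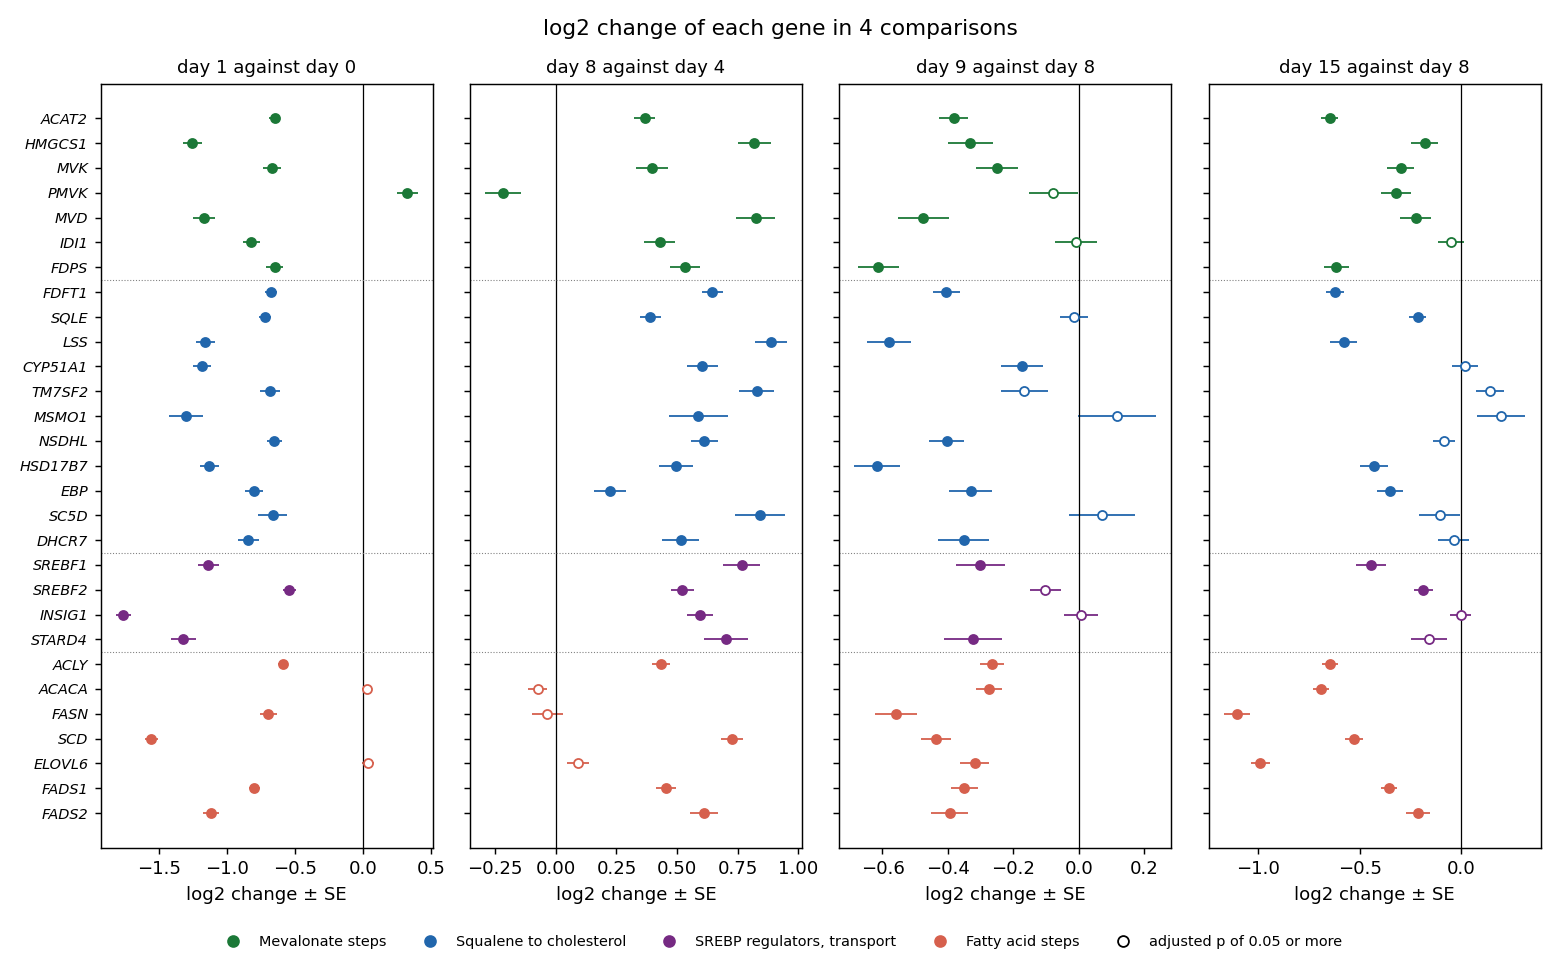
log2 change ± SE of each gene (rows, coloured by role; filled where the adjusted p was under 0.05, open otherwise) in 4 comparisons, each panel with its own horizontal axis. Filled points lie left of 0 for 26 genes on day 1, right of 0 for 25 on day 8 against day 4, and left for 21 on day 9 and 20 on day 15.

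In the sum of the 29 genes, day 8 was a crest after day 0. Not every gene followed: INSIG1 was highest after day 0 on day 12 and TM7SF2 on day 13, among others. The comparison of day 9 with day 8 was added after the levels by day were seen, so its size describes the crest and is no independent test of it. By day 9, 21 of 29 genes were lower and 0 higher (median log2 change -0.32), against 11% lower and 10.5% higher of all genes. All 7 fatty acid genes fell, from FASN (-0.56 ± 0.06, adjusted p = 4.33e-08) to ACLY (-0.26 ± 0.04, adjusted p = 2.87e-06). FASN stood at 1281, 1206 and 1303 CPM on day 8 and at 804, 898 and 871 on day 9, with no overlap. HSD17B7 (-0.62), FDPS (-0.61) and LSS (-0.58) fell most among the sterol enzymes. The 8 that did not pass the test were PMVK, IDI1, SQLE, TM7SF2, MSMO1, SC5D, SREBF2 and INSIG1, and INSIG1 read 87.6, 96.5 and 89.5 CPM before and 92.8, 94.4 and 87.8 after (log2 change 0.01, adjusted p = 0.951). At this step 3 of 10 neuronal markers were higher and 0 lower, while 5 of 10 proliferation markers and 6 of 10 progenitor markers were lower; their part was not tested.

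The next day part of the fall was made good. From day 9 to day 10, 14 genes rose and 2 fell (median log2 change 0.14), against 15.9% and 13.7% of all genes. MVD rose most (0.40 ± 0.08, adjusted p = 0.00013), followed by HSD17B7 (0.37), DHCR7 (0.33), FDPS (0.33), NSDHL (0.31) and SC5D (0.30). FADS2 (0.28 ± 0.06, adjusted p = 0.000256) led the fatty acid genes and STARD4 (0.26 ± 0.09, adjusted p = 0.024) was the only called gene of sensing and transport. SQLE (-0.15, adjusted p = 0.00512) and ELOVL6 (-0.20, adjusted p = 0.000953) fell. Without day 10 replicate 3 only 9 genes were higher, STARD4 (adjusted p = 0.178) and SC5D (0.18) among those lost, and without day 10 replicate 1 SQLE was not called (0.0589). At this step 8 of 10 neuronal markers fell, and their sums were spread widely on day 10, from 3476 to 4688 CPM.

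On day 15 most of the 29 genes stood below their day 8 level. The 18 sterol enzymes summed to 97.9% of day 0 on day 8, 78.7% on day 9 and 79.1% on day 15. In between, the sum of the sterol enzymes rose again, to 87.6% on day 10, 89.7% on day 12 and 85.6% on day 14. It stood at 76.9% on day 11 and 82.6% on day 13, so its drop did not lie in the step to day 9 alone. The 7 fatty acid genes summed to 77.6%, 58.5% and 51.8% on days 8, 9 and 15. From day 8 to day 15, 20 of 29 genes fell and 0 rose, with medians of -0.65 over the 7 fatty acid genes and -0.22 over the 18 sterol enzymes (25.8% of all genes lower, 24.9% higher). FASN ended at 617, 600 and 547 CPM (-1.10 ± 0.06, adjusted p = 2.61e-17). ELOVL6 went from 285, 300 and 288 CPM to 148, 147 and 145 (-0.99 ± 0.05, adjusted p = 4.14e-20), and ACACA from 401, 399 and 408 to 244, 242 and 264 (-0.69 ± 0.04, adjusted p = 1.68e-17). In all 3, no day 15 library reached the lowest of day 8. ACLY (-0.65) and SCD (-0.53) fell too, with FADS2 least (-0.21 ± 0.06, adjusted p = 0.00179). Among sterol enzymes ACAT2 (-0.65 ± 0.04, adjusted p = 1.58e-15), FDFT1 (-0.62), FDPS (-0.62) and LSS (-0.58) fell most, while 7 of the 18, such as CYP51A1 (0.02, adjusted p = 0.851), were not called. TM7SF2 was 0.14 higher and not called, but was called with limma on log2(TPM + 1) (0.24, adjusted p = 0.00532) and without day 15 replicate 3 (0.21, adjusted p = 0.0243). INSIG1 stood at 93.6, 90.4 and 89.1 CPM (log2 change 0.00 ± 0.05, adjusted p = 0.969). All 10 proliferation markers (median -0.50) and 6 of 10 neuronal markers fell over this interval too; their part was not tested.

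From end to end, 22 genes were lower and 2 higher on day 15 than on day 0 (median log2 change -0.39), against 36.2% and 40.3% of all genes. FASN was 3.41-fold lower (-1.77 ± 0.07, adjusted p = 9.92e-25), and all 7 fatty acid genes were lower, down to FADS2 (-0.64). Of the sterol genes HSD17B7 (-1.06), EBP (-1.02) and INSIG1 (-0.93 ± 0.05, adjusted p = 4.42e-19) were furthest below day 0. TM7SF2 was higher, at 66.0, 67.6 and 62.8 CPM on day 0 and 113, 103 and 95.3 on day 15 (0.67 ± 0.07, adjusted p = 7.36e-11), as was NSDHL (0.22 ± 0.05, adjusted p = 0.000423). Both lie between lanosterol and cholesterol, and each was higher in 3 of 3 libraries. This comparison depended on scaling. On log2(TPM + 1), the median of all genes lay 0.155 higher than with TMM, the share of higher calls was 64.4% in place of 52.7%, and 14 of the 29 genes were lower and 3 higher. The third was SREBF2, at 0.00 and not called with TMM but at 0.30 on log2(TPM + 1) (limma, adjusted p = 2.57e-07). The median of the 29 was -0.03 there, where the median of all genes was 0.22, so the median of the 29 lay below that of all genes on either scale. HMGCS1, MVK, MVD, IDI1, SQLE and CYP51A1 lost their call and had slightly positive values on the TPM scale, and LSS and SREBF1 lost their call at -0.03 each. FASN, TM7SF2 and INSIG1 kept their direction and their call.

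Medium was changed on alternate days, but the labels do not say which, so odd against even days is not tied to a feeding day. This comparison was chosen with earlier results of these data known. The contrast weighs days 10 to 15 so that a steady trend cancels. Its p-values rest on the spread between the 3 libraries of a day. They do not measure variation between days of the same parity, so a single deviant day can give a call. Of the 29 genes, 10 were lower on odd days and 0 higher (median log2 difference -0.08), against 3.05% lower and 1.63% higher of all genes. They were INSIG1 and STARD4 in sensing and transport, HMGCS1, IDI1, FDPS and ACAT2 among the mevalonate enzymes, MSMO1 and CYP51A1 further along, and SCD and FADS1.

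INSIG1 read 91.4, 92.9 and 98.0 CPM on day 10, 82.9, 78.3 and 66.7 on day 11, and 115, 110 and 117 on day 12. It then read 95.7, 99.5 and 90.7 on day 13, 93.7, 95.1 and 98.8 on day 14, and 93.6, 90.4 and 89.1 on day 15. Days 11 and 12 stood apart in opposite directions, days 13 to 15 were close, and odd and even libraries as a whole overlapped. The difference was -0.26 ± 0.03 (adjusted p = 3.52e-06). MSMO1 had the largest difference (-0.31 ± 0.08, adjusted p = 0.0117), but 1 library raised day 12, at 162, 164 and 259 CPM, and without day 12 replicate 3 the difference was -0.18 (adjusted p = 0.0736). HMGCS1 (-0.21 ± 0.04, adjusted p = 0.0028), IDI1 (-0.21) and STARD4 (-0.21 ± 0.06, adjusted p = 0.0303) came next, and FADS1 was least (-0.08 ± 0.03, adjusted p = 0.0487). FADS1 lost its call without any 1 of 14 of the libraries, CYP51A1 without any 1 of 6 and STARD4 without any 1 of 5. Day 12 replicate 3 gave the highest adjusted p for CYP51A1 (0.165) and STARD4 (0.198). Without day 13 replicate 3, ACAT2 (0.0535) and SCD (0.0741) were not called either.

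The calls in days 10 to 15 depended on day 11. With least-squares weights on all 6 days 11 genes were lower on odd days, and with day 11 left out of that contrast 0 of the 29 were called, INSIG1 at -0.11 with an adjusted p of 0.225 and HMGCS1 at -0.15 with 0.236. The 10 differences were all still below 0 there, from -0.15 (FDPS) to -0.07 (STARD4), and that of FADS1 was as large as before (-0.09). With any other single day left out, 7 to 15 were called. Calls over all genes were not counted under the least-squares weights, so these counts cannot be set against a share of all genes. By day means, 22 of 29 genes were lower on day 11 than on days 10 and 12, 14 were lower on day 13 than on days 12 and 14, 26 were lower on day 15 than on day 14, and 12 showed all 3. The share of all genes with these orders was not counted, so the orders show no pattern particular to the 29. Without day 13 replicate 3, 5 genes were called, and without replicate 3 of every day only INSIG1 was called. In this window 4 of 10 proliferation markers were also lower on odd days and 0 of 10 neuronal markers were called, though single libraries of day 11 ranged from 3720 to 5640 CPM in summed neuronal markers. Of 10 progenitor markers 2 were lower on odd days, VIM and FABP7, and 0 higher, and their summed level was 287.2, 245.2, 262.2, 239.9, 261.9 and 216.0% of day 0 on days 10 to 15, lower on each odd day than on the day before. The part of these markers was not tested.

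In days 4 to 9 the same contrast called 0 of the 29 genes at an adjusted p under 0.05 in edgeR (9 at an unadjusted p under 0.05, and 4 lower with DESeq2), against 0.262% higher and 0.103% lower of all genes. The test of the difference between the windows called INSIG1 (-0.33 ± 0.05, adjusted p = 0.000265) and IDI1 (-0.26 ± 0.06, adjusted p = 0.0362), against 0.18% lower and 0.0823% higher of all genes. For the other 27 the difference between windows was not shown, and neither call held with day 11 or with day 12 out of the least-squares contrast (INSIG1 adjusted p = 0.442 and 0.07, IDI1 0.671 and 0.332). With least-squares weights on all 6 days INSIG1 was still called (0.00191) and IDI1 was not (0.0823).

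**Figure D5:**
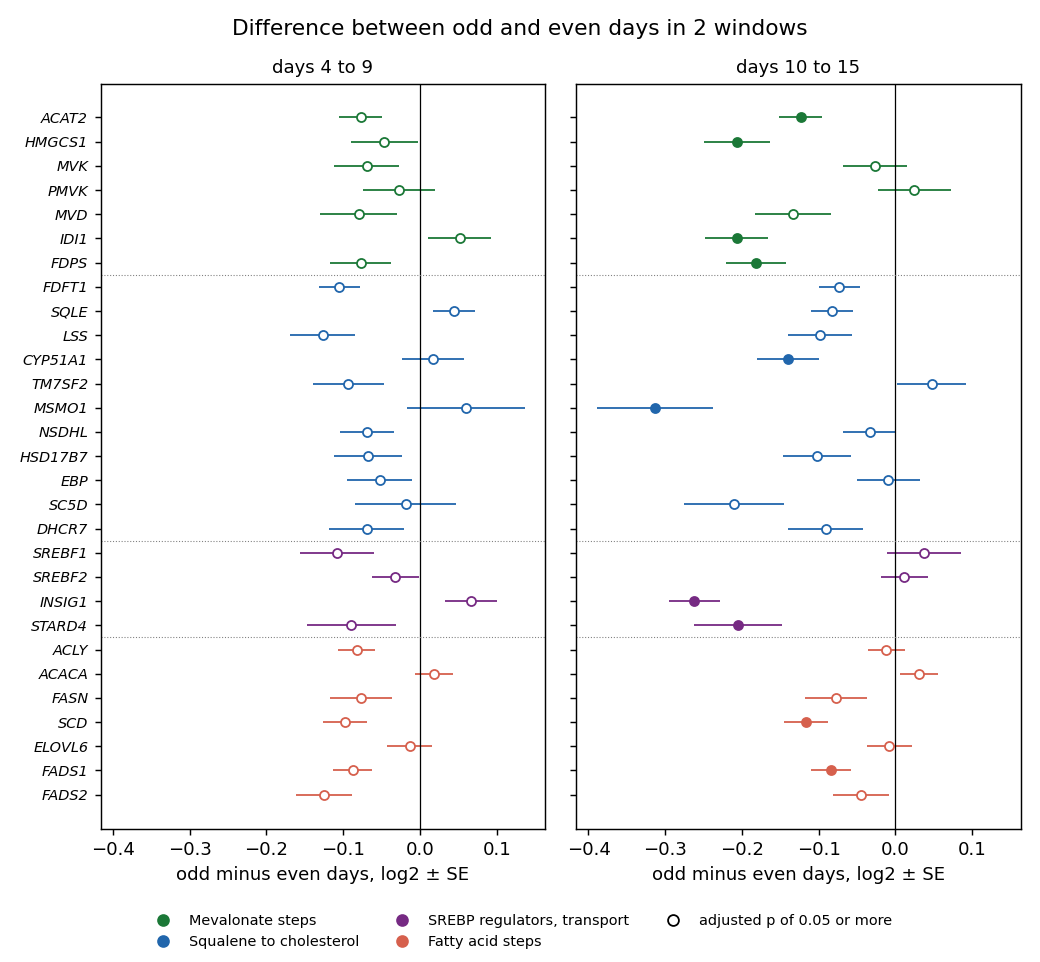
Difference between odd and even days (log2 ± SE, odd minus even) of each gene, coloured by role, in days 4 to 9 and days 10 to 15; points are filled where the adjusted p was under 0.05. In the early window 0 points are filled, and in the late window 10 are, with INSIG1 at -0.26.

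Other genes of lipid handling moved in part with the 29 and in part against them. Of 4 genes of the SREBP processing machinery, 2 fell on day 1 and 3 were higher on day 15 than on day 0. INSIG2, a paralog of INSIG1, was higher on day 15 than on day 0 by 0.71, whereas SCAP, the sterol sensor, was lower by 0.26 (log2 change -0.26, adjusted p = 9.24e-05) and had not passed the test on day 1 (0.12, adjusted p = 0.0572). Of 19 other genes of fatty acid synthesis and activation, 15 fell and 3 rose on day 1. ACSS2, which activates acetate, fell from 98.3 ± 8.81 to 23.3 ± 1.42 CPM (-2.08 ± 0.07, adjusted p = 5.7e-25), and ACSL6, an acyl-CoA synthetase, from 3.87 ± 1.02 to 0.20 ± 0.10. From day 4 to day 8, 12 of the 19 rose and 2 fell, led by ACSL6 (4.24). In days 10 to 15, 3 of the 19 were lower on odd days: FABP7, a fatty acid carrier of radial glia that is also on the progenitor list (-0.31), ELOVL2, an elongase (-0.23), and HSD17B12 (-0.16), the last named after its value was seen.

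Genes of efflux and oxidation were also followed. Of 7 genes of LXR signalling and sterol efflux, 5 were higher and 2 lower on day 15 than on day 0, and their summed level was 70.4% of day 0 on day 1 and 107.4% on day 8. ABCG1, a cholesterol exporter, went from 0.55 ± 0.12 to 6.00 ± 0.18 CPM (3.43 ± 0.19, adjusted p = 3.09e-19), and MYLIP, a ubiquitin ligase induced by sterols, from 4.87 ± 0.29 to 18.1 ± 1.16. ABCG1 was also the 1 gene of that list that was higher on odd days (0.33 ± 0.10, adjusted p = 0.0406). Of 12 genes of fatty acid oxidation, 8 were lower and 2 higher on day 1 than on day 0, and 8 were higher and 1 lower on day 8 than on day 4. Their summed level was 81.0% of day 0 on day 1 and 99.5% on day 8. From end to end 6 were higher and 3 lower, near the shares of all genes (40.3% and 36.2%), led by CPT1A, which admits fatty acids to mitochondria, at 1.70 ± 0.50 CPM on day 0 and 16.2 ± 0.76 on day 15 (3.26 ± 0.17, adjusted p = 4.58e-20). Of 14 genes of sterol side branches, esterification and lysosomal export, 7 fell and 1 rose on day 1. The fall of CYP27A1, a sterol hydroxylase (-1.88), and the rise of CYP46A1, which hydroxylates cholesterol in neurons (1.22), were the largest there.

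Some counts may include reads of neighbours or copies, since the strand used for counting is not given in the sources used here. ACAT2 overlaps TCP1 and SOD2, MVK overlaps MMAB, TM7SF2 overlaps VPS51, SREBF1 overlaps RAI1, ACACA overlaps C17orf78, and FADS1 and FADS2 overlap each other. FADS2 also overlaps FEN1, a replication gene, and CYP51A1 overlaps AC000120.2 and AC000120.3. These overlaps, and that of TM7SF2 with VPS51, are on the same strand. FDPS has 8 named pseudogenes, CYP51A1 has 3, HSD17B7 has 2, and SCD and FADS2 have 1 each. The levels of these genes are uncertain to that extent.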

How the data were processed

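Polyadenylated RNA of 45 libraries, 3 per day, was sequenced by the submitters. Base calls were converted with bcl2fastq 2.20.0 and genes quantified with RSEM on GRCh38, per the submitters' processing notes. Which aligner, annotation and strand setting RSEM used is not given in the sources used here. The authors deposited RSEM expected counts, in which 92.52% of values were whole (within 1e-09), and TPM values, which RSEM scales for length and library. Expected counts were rounded to whole numbers. Symbols and positions came from GENCODE 29, which held 57895 of the 58233 gene identifiers; the others took 0.0276% of counts.

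Days were compared with edgeR 4.0.16 (R 4.3.3), quasi-likelihood F test, robust, TMM scaling (factors 0.9247 to 1.061), with 1 fit to all 45 libraries (30 residual degrees of freedom, median biological coefficient of variation 7.87%). A low-count filter by day left 19436 genes, over which p-values were Benjamini-Hochberg adjusted. Library totals were 22835854 to 39066286 counts. On simulated counts with 18540 genes tested, 85% of 100 genes changed 1.5-fold were recovered for day 1 against day 0. For odd against even days in days 10 to 15, 100% of 100 genes changed 2-fold were recovered. Changes as small as the odd-even differences reported here were not simulated, nor was variation among the odd or among the even days of that window. The SE of a log2 change is its size divided by the square root of F.

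The members, the lists and the tests were chosen with earlier results of these data known. Per comparison and role, the called genes with the largest and smallest change were named with their test, together with any gene that moved against the rest and up to 2 leading genes of each other list. The tests were repeated with DESeq2 1.42.0, with edgeR on DESeq2 size factors, with limma 3.58.1 on log2(TPM + 1) and log2(TPM + 0.1), with no filter, with a fit of the compared days alone, with a replicate block, and with each replicate left out. Chosen after seeing the data were day 9 against day 8, each of 42 single libraries left out, and least-squares weights with single days out.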

Additional observations from a re-analysis of the deposited data

Results flagged for a closer look

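For 2 of the 29 genes the difference between odd and even days was called as differing between days 10 to 15 and days 4 to 9. The test was of that difference itself (edgeR quasi-likelihood F test). It too rests on the spread between libraries of the same day, not on variation between days. For INSIG1 the later minus the earlier difference was -0.3287 on the log2 scale (SE 0.05, adjusted p = 0.000265), from 0.07 in days 4 to 9 to -0.26 in days 10 to 15. For IDI1 it was -0.2589 (SE 0.06, adjusted p = 0.0362). The call of INSIG1 was lost in 6 of 53 alternatives, among them day 11 out of the contrast (adjusted p = 0.442) and day 12 out (0.07), and that of IDI1 in 26 of 53. IDI1 read 136, 134 and 126 CPM on day 11 and 159, 161 and 190 CPM on day 12.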

How the results depend on the processing

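Counts of the 29 genes higher or lower stayed within 1.5 times of those reported except as follows, and the cause was not tested. For day 4 against day 1, 2 genes were lower; 1 was with no filter and without any 1 of 5 single libraries, 0 with limma on either TPM scale, and 0 to 1 with 1 replicate number left out. For day 8 against day 4, PMVK was no longer lower (0 genes) with no filter, with only those days in the fit, with limma on either TPM scale, and without day 4 replicate 1 or day 8 replicate 2; leaving out a replicate number gave 0 to 1. For day 15 against day 8, 1 gene was higher in place of 0: TM7SF2 with limma on either TPM scale, without replicate 3 and without day 15 replicate 3, and MSMO1 with only those days in the fit. For day 15 against day 0, 14 genes were lower in place of 22 with limma on either scale. For day 9 against day 8, 4170 of all genes were called, 2663 on log2(TPM + 1), 2473 on log2(TPM + 0.1) and 1010 to 3049 with a replicate left out. For day 10 against day 9, 8 to 9 genes were higher in place of 14 without replicate 1, replicate 2 or day 10 replicate 3; 0 were lower in place of 2 without replicate 1 or with only those days in the fit, and 1 without day 10 replicate 1; all genes called were 5756, and 2760 to 5306 with a replicate left out.

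Odd against even days of days 10 to 15 gave 10 genes lower, but 1 to 5 with a replicate left out, 3 with only those days in the fit, 5 without day 13 replicate 3 and 0 with day 11 out of least-squares weights; all genes called were 908, then 138 to 356, 183 with only those days, and 482 and 397 with limma. In days 4 to 9, 0 genes were lower, but 2 (LSS and FADS2) with only those days, 1 on log2(TPM + 1), 1 without day 4 replicate 2 and 4 (FDFT1, ACLY, SCD and FADS1) with DESeq2; all genes called were 71, then 0 to 135 with a replicate left out, 125 with only those days, 15 and 4 with limma, and 180 with DESeq2. The difference between the windows was called for 2 genes, for 0 to 1 with a replicate left out, 0 with limma on either scale, 4 with DESeq2, 1 without any 1 of 16 single libraries, 1 with least-squares weights on all days or with day 10 or 13 out, and 0 with day 11 or 12 out; all genes called were 51, then 0 to 9, 28 with only those days, 11 with limma on either scale and 243 with DESeq2.

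Directions that turned did so with limma on log2(TPM + 1) and log2(TPM + 0.1): ELOVL6 on day 1 against day 0 (-0.1243 and -0.1252), and on day 15 against day 0 HMGCS1 (5.853e-05 and 5.55e-05), MVK (0.006569 and 0.006498), MVD (0.06193 and 0.06231), IDI1 (0.08161 and 0.0822), SQLE (0.08392 and 0.08424) and CYP51A1 (0.02918 and 0.02937).

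In the comparisons of 2 days, the replicate numbers did not clearly pair the libraries (correlations of deviations from -0.175 to 0.171). No pair of days within days 10 to 15 was checked, so pairing by replicate number in that window was not tested. With a replicate block, 10 genes were lower on odd days of days 10 to 15 and 957 of all genes were called, and no count of the 29 genes changed in any comparison.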
